A study of Homo sapiens with 6 samples.

Results

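The genes described here are 10 transporters that carry glutamate, cystine or neutral amino acids across the plasma membrane: SLC1A1, SLC1A2, SLC1A3, SLC1A4, SLC1A5, SLC3A2, SLC7A5, SLC7A11, SLC38A1 and SLC38A2. They were taken by symbol from the 58676 genes of the deposited table. SLC1A3 was chosen by its RPKM values in this comparison, which did not overlap between knockdown and control, so its values are a description with no test. The others were added as members of the same transport families, with earlier results of these data known. Of the 10 genes, 9 reached 0.5 RPKM in at least 3 libraries and were tested, and SLC1A2 was not.

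Total RNA came from a human hepatocellular carcinoma cell line, labelled HCC and not otherwise named, grown in DMEM with serum. The control libraries are labelled control and carry 238 in their titles, a code the labels do not explain, and the titles of the knockdown libraries carry the word sponge. The series title names miR-19a, and a sponge is a transcript with binding sites that take up a microRNA. What the controls received, and whether the line is 1 clone, is not given in the sources used here. The labels do not say whether the replicates are separate cultures. The p-values therefore set a group difference against the spread among these libraries, a spread that may be technical.

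Values are RPKM, reads scaled by exon length and by assigned reads, so levels of different genes can be compared per length. The length is that of all annotated exons of a gene together, which can exceed that of the transcripts present. The libraries held 1948940 to 19605312 assigned reads, and control replicate 2 was the shallowest. Knockdown replicate 2 was left out because its values did not follow the gene IDs, with rank correlations across genes of 0.017 to 0.019 with the other columns against 0.82 to 0.89 among those. All comparisons below are therefore of 3 control with 2 knockdown libraries. All 16 hepatocyte markers were at 1 RPKM or more on average, among them ALB at 652.4 to 950.9 RPKM. Of 7 astrocyte and glia markers, which matter because SLC1A3 and SLC1A2 are the main glutamate transporters of astrocytes, S100B and OLIG2 had 0 reads, GFAP had 8 reads in all 5 libraries together and GJA1 alone exceeded 1 RPKM. Through GJA1, a gap junction gene not restricted to glia, the summed level of this list was 209.7 to 272.0 RPKM in the controls and 146.1 to 177.8 RPKM under knockdown. Summed perivenous hepatocyte markers, mostly GLUL and OAT, were at 52.7 to 65.1 RPKM in the controls and 46.7 to 51.1 RPKM under knockdown. Among them CYP2E1 and CYP1A2 had 12 and 5 reads in all 5 libraries together. GLUL, LGR5, TBX3 and AXIN2 overlapped between groups, OAT was lower under knockdown, and RHBG was higher. Summed cholangiocyte markers, mostly KRT19, were at 220.7 to 358.4 RPKM in the controls and 360.3 to 467.3 RPKM under knockdown. SOX9, of the same list, went the other way, at 20.0 to 25.4 and 16.2 to 19.0 RPKM. The part of these marker levels in the results was not tested.

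The SLC1 family holds sodium-driven transporters of acidic amino acids (SLC1A1, SLC1A2 and SLC1A3, also called EAAT3, EAAT2 and EAAT1) and exchangers of neutral amino acids (SLC1A4 and SLC1A5, also called ASCT1 and ASCT2). SLC3A2, the CD98 heavy chain, brings light chains to the cell surface, where SLC7A5 (LAT1) exchanges glutamine for leucine and other large neutral amino acids and SLC7A11 (xCT) exports glutamate in exchange for cystine, the source of cysteine for glutathione. SLC38A1 and SLC38A2 (SNAT1 and SNAT2) take up glutamine and other small neutral amino acids with sodium. In liver, glutamate uptake is known mainly from perivenous hepatocytes, which make glutamine, while liver cancer cells commonly use SLC1A5, SLC7A5 and SLC7A11 for growth and redox balance.

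A microRNA of the miR-19 family pairs through its seed with matching sites in the 3' UTR of messenger RNAs. The mature sequences below are from RefSeq (GRCh38.p14) and are shown because the series title names miR-19a. The labels do not state the target of the sponge. Capitals mark the seed, bases 2 to 8, which both share.
hsa-miR-19a-3p: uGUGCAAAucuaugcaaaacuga
hsa-miR-19b-3p: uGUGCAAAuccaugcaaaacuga
The site TTTGCAC, the reverse complement of the seed, was searched on the sense strand of the longest annotated 3' UTR of each transporter. It was found once in SLC7A11 and once in SLC38A2, and not in the longest 3' UTR of the other 8. Over all 19133 coding genes with a 3' UTR, 13.6% held the site. The stretch around each site is shown 5′ to 3′ on the transcript strand with the site in capitals. That of SLC7A11 lies at chr4:138165597-138165625 (GRCh38, minus strand). Its site starts at base 6342 of a 3' UTR of 7859 bases and is followed by the A that makes the longer form of the site. That of SLC38A2 lies at chr12:46359854-46359882 (GRCh38, minus strand). Its site starts at base 1240 of a 3' UTR of 2922 bases, without that A.
SLC7A11: aaattttcatcTTTGCACaatagtatgac
SLC38A2: ataaaaactcaTTTGCACtggactgtcat
Long 3' UTRs hold the site more often. Among coding genes whose 3' UTR was within 1.2 times the length of that of SLC7A11, 51.9% held it, and for SLC38A2 the share was 23.99%. The 3' UTR of SLC1A3 (2065 bases) held none, as did those of 82.9% of genes of like length.

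The order of the transporters by level was similar in every library. SLC1A5 was the most abundant, at 61.0 to 77.7 RPKM, or 16.8 times the median tested gene, and exceeded SLC38A2 in 5 of 5 libraries. SLC38A2, SLC7A5 and SLC3A2 followed at 26.5 to 53.1 RPKM, and their order was not fixed, since SLC38A2 exceeded SLC7A5 in 3 of 5 libraries and SLC7A5 exceeded SLC3A2 in 3 of 5. SLC38A1 came next at 11.3 to 20.9 RPKM. SLC1A4, SLC1A1 and, in control, SLC1A3 lay close together between 5.37 and 8.56 RPKM. SLC7A11 was the lowest of those tested, at 0.870 to 1.86 RPKM, above 20.1% of tested genes. SLC1A2 had 0 of 55230358 reads. A floor of 3 reads per library allows it at most 0.00670 RPKM in the deepest library and 0.0674 RPKM in the shallowest.

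**Figure D1:**
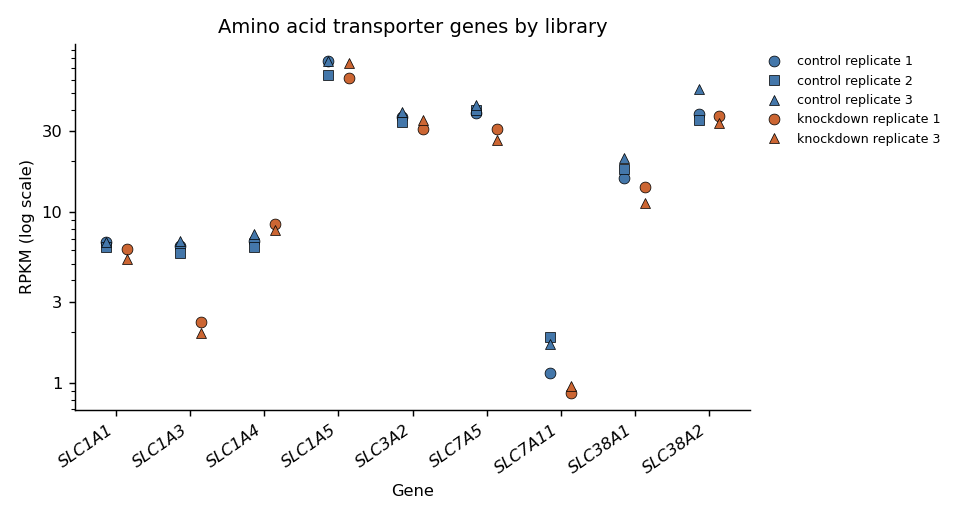
RPKM (log axis) of the 9 transporter genes with reads, 1 point per library, with control libraries in blue and knockdown libraries in orange, and the marker shape giving the replicate number. The orange points of SLC1A3 lie at 1.95 and 2.27 RPKM, below blue points at 5.81 to 6.79 RPKM, while those of SLC1A4 lie above the blue ones.

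Of the glutamate transporters, SLC1A3 had the larger difference and SLC1A1 the smaller. SLC1A3 (ENSG00000079215, chromosome 5 from 36606355 to 36688334, GRCh38) was at 6.38, 5.81 and 6.79 RPKM in control replicates 1, 2 and 3, and the 2 knockdown libraries held 2.27 and 1.95 RPKM (replicates 1 and 3). Both knockdown libraries lay below every control, and the highest knockdown value was less than the lowest control value by more than the whole spread of either group. These values rest on 367, 71 and 834 reads in control and on 132 and 186 reads in knockdown. With these reads the 95% counting interval was 4.54 to 7.33 RPKM in the shallowest control and 1.90 to 2.69 and 1.68 to 2.26 RPKM in the knockdown libraries. The group means were 6.33 ± 0.490 RPKM (SD, n = 3) and 2.11 ± 0.221 RPKM (SD, n = 2), 3.00-fold lower in knockdown, and the log2 difference was -1.39 (SE 0.17). This separation is the reason the gene was chosen, and it is given without a test. In bulk RNA, fewer cells that express a gene and less of its RNA per cell cannot be told apart.

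SLC1A1 (ENSG00000106688, chromosome 9 from 4490444 to 4587469), the glutamate and cysteine transporter of neurons and epithelia, was at 6.67, 6.29 and 6.71 RPKM in control and at 6.13 and 5.37 RPKM in knockdown. Both knockdown libraries lay below the controls, the nearer of them by little. The log2 difference of -0.18 (SE 0.15) fell short of the threshold (limma adjusted p = 0.78), and leaving out knockdown replicate 1 gave -0.27 and leaving out replicate 3 gave -0.089. In the controls SLC1A3 and SLC1A1 were at nearly equal levels per length, with a ratio of 0.956, 0.925 and 1.01. In knockdown the ratio was 0.369 and 0.364. SLC1A3 thus made up 49.1% ± 1.14 (SD, n = 3) of the summed RPKM of SLC1A1, SLC1A2 and SLC1A3 in control and 26.8% ± 0.203 (SD, n = 2) in knockdown. The sum itself went from 12.9 ± 0.714 RPKM to 7.86 ± 0.765 RPKM (SD), most of it through SLC1A3. The ratio, the share and the sum all contain SLC1A3, so their differences follow from the choice of that gene. They are given without a test.

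**Figure D2:**
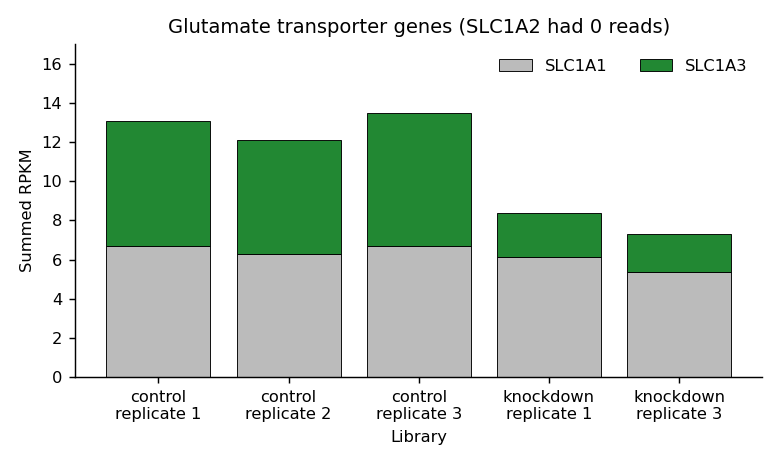
Summed RPKM of SLC1A1 (grey) and SLC1A3 (green) in each of the 5 libraries, stacked from 0, with SLC1A2 at 0 reads in all. The grey part is 6.29 to 6.71 RPKM in the controls and 5.37 to 6.13 RPKM under knockdown, and the green part is 5.81 to 6.79 and 1.95 to 2.27 RPKM.

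Genes that overlap SLC1A3 were low. Whether counting used strand is not given in the sources used here, so reads of a gene and of an antisense partner cannot be told apart. The antisense genes AC008957.1 and AC008957.2 were at no more than 0.835 and 0.166 RPKM in any library, and AC008957.3, annotated on the strand of SLC1A3, at 0.243 to 0.458 RPKM in control and at 0 in knockdown.

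The 5 tested genes whose profile over the 5 libraries was nearest to that of SLC1A3 were DSTNP1, MYCN, AC100797.1, HMGCS1 and TRPC4. Likeness was the root mean square distance between log2(RPKM + 0.5) values centred on each gene's mean, and it was 0.16 for DSTNP1, 0.20 for MYCN and AC100797.1, 0.21 for HMGCS1 and 0.22 for TRPC4. DSTNP1, a pseudogene, rests on 4, 1 and 9 reads in control and 0 in knockdown, and AC100797.1 on 5, 1 and 8 reads and on 1 and 2. The knockdown values of both lay below 0.5 RPKM, so both were tested through the controls alone. MYCN rests on 140, 25 and 331 reads in control and on 70 and 93 in knockdown, and HMGCS1 and TRPC4 on 130 or more in every library. MYCN, a transcription factor of the MYC family, was at 4.93 to 6.49 RPKM in the controls and 2.35 to 2.89 RPKM under knockdown. HMGCS1, which makes the HMG-CoA for cholesterol synthesis, was at 189.7 to 218.0 and 86.7 to 116.9 RPKM, and TRPC4, a calcium channel, at 13.2 to 16.8 and 6.74 to 7.73 RPKM. Since likeness to SLC1A3 selects genes with this separation, no test is given.

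**Figure D3:**
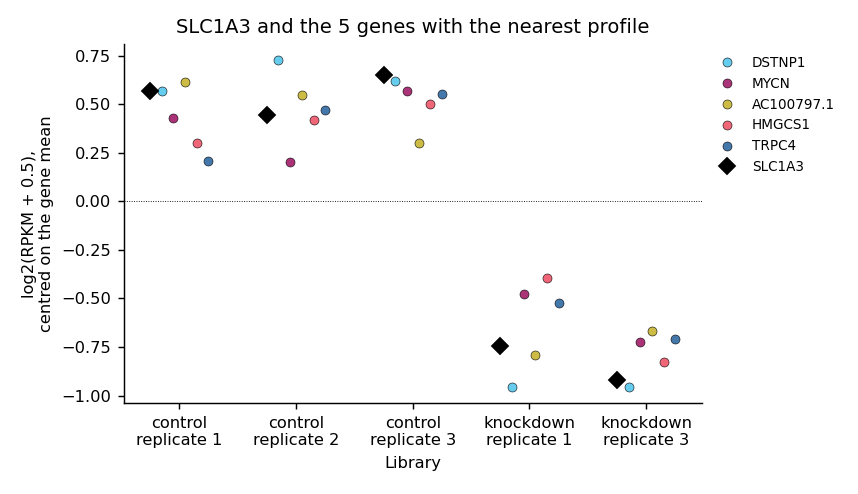
log2(RPKM + 0.5) of SLC1A3 (black diamonds) and of its 5 nearest genes (coloured points), each centred on its own mean over the 5 libraries, which stand along the x axis. All 6 genes are above their mean in the 3 control libraries and below it in both knockdown libraries.

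The neutral amino acid exchangers of the same family differed little between groups, SLC1A4 with higher and SLC1A5 with overlapping values. SLC1A4 (ENSG00000115902, chromosome 2 from 64988477 to 65023865), which exchanges alanine, serine and cysteine, was at 6.76, 6.29 and 7.43 RPKM in control and at 8.56 and 7.88 RPKM in knockdown. It was the only one of the 9 tested transporters with both knockdown libraries above all controls. The log2 difference of 0.25 (SE 0.16) fell short of the threshold (limma adjusted p = 0.73). It was at 0.20 to 0.38 in the 17 alternatives on these 5 libraries or on subsets of them. Since the groups did not overlap, other pseudocounts or filters, the fit without trend, the replicate block and leaving out 1 library could not change its sign. SLC1A5 (ENSG00000105281, chromosome 19 from 46774883 to 46788594), the main glutamine exchanger of many tumour cells, was at 77.5, 64.4 and 77.7 RPKM in control and at 61.0 and 75.6 RPKM in knockdown. The groups overlapped, and the log2 difference of -0.10 (SE 0.18) fell short of the threshold (limma adjusted p = 0.89). It was -0.33 with each library's trend against gene length and GC content removed and 0.052 without knockdown replicate 1.

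Among the CD98 heavy chain and its light chains, both light chains had lower values in knockdown, and the heavy chain overlapped between groups. SLC7A5 (ENSG00000103257, chromosome 16 from 87830023 to 87869488) was at 38.3, 40.1 and 42.6 RPKM in control and at 30.8 and 26.5 RPKM in knockdown. All knockdown values lay below the controls. The means were 40.3 ± 2.20 RPKM (SD, n = 3) and 28.7 ± 3.05 RPKM (SD, n = 2), and the log2 difference of -0.49 (SE 0.15) had an unadjusted p of 0.0189 in limma and fell short after adjustment (limma adjusted p = 0.71). The pseudogenes SLC7A5P1, at up to 1.42 RPKM, and SLC7A5P2, at 0, are copies that could share reads with it.

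SLC7A11 (ENSG00000151012, chromosome 4 from 138164097 to 138242349) was at 1.15, 1.86 and 1.70 RPKM in control and at 0.870 and 0.962 RPKM in knockdown. The groups did not overlap, but the values rest on 35 to 321 reads, and the 95% counting interval of control replicate 1 (0.939 to 1.40 RPKM) overlapped those of both knockdown libraries (0.688 to 1.09 and 0.810 to 1.13 RPKM). The log2 difference of -0.53 (SE 0.25) fell short of the threshold (limma adjusted p = 0.71). This transcript, the lowest of those tested, holds the 8-base form of the miR-19 site shown above. SLC3A2 (ENSG00000168003, chromosome 11 from 62856102 to 62888875) was at 36.5, 33.9 and 39.0 RPKM in control and at 31.0 and 34.9 RPKM in knockdown. Its groups overlapped, with a log2 difference of -0.14 (SE 0.15; limma adjusted p = 0.81), or -0.059 without knockdown replicate 1 and -0.23 without knockdown replicate 3. Per length, SLC7A5 was about as abundant as the heavy chain, with a ratio of 1.05 to 1.18 in control and 0.995 and 0.759 in knockdown. The lengths used were 4745 bases for SLC7A5 and 5178 for SLC3A2, all annotated exons together, and the ratio depends on them. SLC7A11 was a small part of the level of the heavy chain, with a ratio of 0.0316 to 0.0549 in control and 0.0281 and 0.0276 in knockdown.

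The sodium-coupled glutamine transporters SLC38A1 and SLC38A2 are neighbours on chromosome 12, on the same strand and 88171 bases apart. SLC38A1 (ENSG00000111371, 46183063 to 46270017) was at 15.9, 18.1 and 20.9 RPKM in control and at 14.1 and 11.3 RPKM in knockdown. Its knockdown values lay below all controls, and the log2 difference of -0.51 (SE 0.19) had an unadjusted p of 0.0390 in limma and fell short after adjustment (limma adjusted p = 0.71). With length and GC trends removed it was -0.30. SLC38A2 (ENSG00000134294, 46358189 to 46372867) was at 37.6, 34.7 and 53.1 RPKM in control and at 37.0 and 33.3 RPKM in knockdown. Its groups overlapped and control replicate 3 stood above the other 4 libraries. The log2 difference of -0.23 (SE 0.22) fell short of the threshold (limma adjusted p = 0.80), and it was -0.042 without control replicate 3, -0.07 with length and GC trends removed and -0.35 without control replicate 2. This transcript holds the second miR-19 site shown above.

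Of the 8 tested transporters other than SLC1A3, 7 had a log2 difference below 0 and 1 above, with a median of -0.20, against a median of -0.00020 and 50.0% below 0 over the 15408 tested genes. Both knockdown libraries lay below all controls for 4 of the 8 (SLC1A1, SLC7A5, SLC7A11 and SLC38A1), where 13.6% of tested genes did, and above all controls for 1 (SLC1A4), where 14.3% did. The 8 were chosen with earlier results of these data known, so these counts are a description, and their contrast with all tested genes was not tested. By limma 0 of the 8 passed at an adjusted p under 0.05, as did 0.0% of all tested genes in either direction, and 2 of the 8 were lower at an unadjusted p under 0.05 against 2.54% of tested genes. None of the 8 was higher at that level, where 3.8% of tested genes were. Limma voom on the recovered reads also called 0 genes in all and voom with sample weights called 4. The sign of each of the 9 differences was the same under the 3 other scalings.

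**Figure D4:**
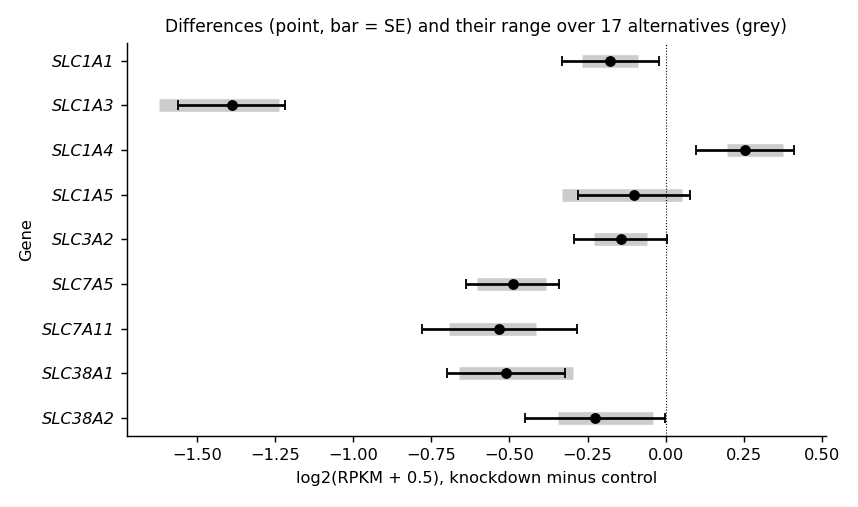
Knockdown minus control difference in log2(RPKM + 0.5) for the 9 tested transporters, with points for the estimate, black bars for its SE and grey bands for the range over 17 alternatives on the same libraries or on subsets of them. SLC1A3 lies at -1.39 with a band from -1.62 to -1.24, SLC1A4 lies above 0 throughout, and the band of SLC1A5 spans 0.

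Transporters outside the 10 varied in both directions, and 0 of the genes in the following lists passed the limma test at an adjusted p under 0.05 (lowest 0.71). These lists were also chosen with earlier results of these data known. Of 32 other transporters of glutamate and neutral amino acids, 17 were tested, 11 lay below 0 and 6 above it, and the median was -0.12. At an unadjusted p under 0.05, 3 were lower and 0 higher, where 2.54% of all tested genes were lower and 3.8% higher. The lower ones were SLC6A14, which takes up neutral and cationic amino acids, at 7.06, 7.15 and 9.60 RPKM in control and 4.74 and 4.73 RPKM in knockdown (log2 difference -0.68, SE 0.19), SLC7A6, another partner of the CD98 heavy chain (-0.78, SE 0.26), and SLC17A8, a vesicular glutamate transporter (-0.63, SE 0.23). SLC17A8 was at 0.721 to 0.907 RPKM in control and at 0.327 and 0.354 RPKM in knockdown, so it reached the minimum of 0.5 RPKM through the controls alone and could enter these counts only as lower. SLC38A3, a glutamine transporter of hepatocytes, differed by 0.39 (SE 0.20), and SLC43A1, a carrier of large neutral amino acids and the most abundant of the list at 48.9 to 53.8 RPKM, by -0.017 (SE 0.14). Of 4 tested genes of a list of cationic amino acid transporters, which also held the taurine carrier SLC6A6, 3 were below 0, where 50.0% of all tested genes were. SLC7A1, the main arginine and lysine carrier of dividing cells, was at 5.56, 7.47 and 6.13 RPKM in control and 4.38 and 3.11 RPKM in knockdown (log2 difference -0.71, SE 0.22).

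Enzymes and mitochondrial carriers that handle glutamate, glutamine, aspartate and asparagine were below 0 for 16 of 21 tested genes, with a median of -0.23. At an unadjusted p under 0.05, 3 were lower and 2 higher, where 2.54% and 3.8% of all tested genes were. Both knockdown libraries lay below all controls for 7 of the 21 and above all for 2, against 13.6% and 14.3% of all tested genes. CAD, which starts pyrimidine synthesis from glutamine, differed by -0.65 (SE 0.18), PSAT1, which uses glutamate to make serine, by -0.52 (SE 0.14), and GOT1, the cytosolic aspartate aminotransferase, by -0.40 (SE 0.13). ASS1, which joins aspartate to citrulline, was at 31.8, 26.1 and 33.1 RPKM in control and at 43.6 and 49.9 RPKM in knockdown (log2 difference 0.62, SE 0.17). GPT, the alanine aminotransferase, differed by 0.91 (SE 0.32). It was at 0.186 to 0.672 RPKM in control and at 1.37 and 1.05 RPKM in knockdown, and only 1 control reached 0.5 RPKM, so it was tested through its knockdown values. GLUD1, the mitochondrial glutamate dehydrogenase and the most abundant of the list at 87.7 to 122.6 RPKM, differed by -0.24 (SE 0.17).

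Genes of glutathione synthesis from cystine and of its breakdown were split, with 5 of 10 tested genes above 0 and 5 below and a median of 0.014. GPX4, the glutathione peroxidase that repairs lipid peroxides, was at 174.9, 120.0 and 134.0 RPKM in control and at 184.6 and 247.1 RPKM in knockdown (log2 difference 0.60, SE 0.24). GGT1, which breaks down extracellular glutathione, differed by 0.44 (SE 0.16), and was the 1 gene of these 10 at an unadjusted p under 0.05, where 3.8% of all tested genes were higher. GSR, glutathione reductase, differed by -0.35 (SE 0.15), GCLC, the catalytic subunit of the first enzyme of synthesis, by -0.29 (SE 0.16), and CTH, which makes cysteine from cystathionine, by -0.40 (SE 0.21).

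Transcription factors and regulators known to act on amino acid transporter genes were above 0 for 9 of 14 tested genes, with a median of 0.026. Of them 1, MYCN, at the levels given above, was lower at an unadjusted p under 0.05 in limma, where 2.54% of all tested genes were. MYCN was also picked above by its likeness to SLC1A3, so this count is a description. ATF4, the factor that induces SLC7A11, SLC3A2 and SLC7A5 when amino acids are short, was at 98.4 to 141.5 RPKM in the controls and 127.9 to 144.9 RPKM under knockdown, a log2 difference of 0.16 (SE 0.21). ATF3, which is induced with it under stress, differed by 0.60 (SE 0.25). Of 23 tested genes of amino acid sensing upstream of mTORC1, the growth-controlling kinase complex, 13 lay above 0 and 10 below it, and the median was 0.037. RPTOR, its scaffold subunit, was at 2.79 to 2.95 RPKM in control and 1.57 and 2.07 RPKM in knockdown (log2 difference -0.55, SE 0.19). It was the 1 gene of these 23 at an unadjusted p under 0.05, a count near the share over all tested genes (2.54% lower and 3.8% higher).

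**Figure D5:**
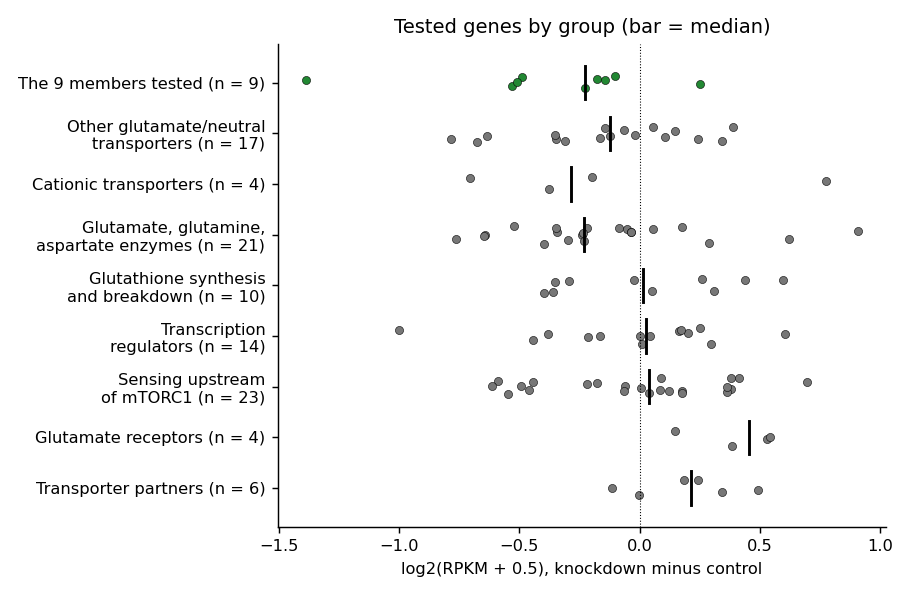
Knockdown minus control difference in log2(RPKM + 0.5) for each tested gene (points) of the transporter set (green, top row) and of 8 related gene lists (grey), with vertical bars for medians. SLC1A3, at -1.39, is the point furthest to the left, and the medians of the 8 lists lie between -0.29 and 0.46, the latter over 4 glutamate receptors of low level. All of these receptors but GRIA3 passed the filter only with their knockdown values.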

How the data were processed

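RNA of 6 libraries was sequenced, 3 labelled control and 3 labelled knockdown. The authors deposited 1 table of RPKM values (reads scaled by exon length and by assigned reads), as its name and the labels state. HISAT2 and GRCh38 are named in the submitters' processing notes, and the sources used here do not give the read counter, its annotation, filters or use of strand. All 58676 gene IDs were matched to GENCODE release 29 (GRCh38), which gave symbols, coordinates, exon lengths and 3' UTRs. In 5 libraries each RPKM above 0, multiplied by exon length, came to whole reads (tolerance 0.002 of a read), and these are given as reads. Intervals are exact Poisson intervals at 95% and cover counting error only.

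The test was limma 3.58.1 (eBayes with trend, R 4.3.3) on log2(RPKM + 0.5), two-sided, over the 15408 genes that reached 0.5 RPKM in 3 or more of the 5 libraries, with Benjamini-Hochberg adjustment over all of them and a threshold of 0.05. Knockdown replicate 2 was left out by the rule that chose the genes. Each of the 10 transporters is named. From each further gene list, the genes named are among the 3 of smallest unadjusted p in each direction and the most abundant member. The transporters and lists were chosen with earlier results of these data known. Alternatives were other pseudocounts, filters and scalings, limma without trend, limma voom on whole reads, also with sample weights, removal of length and GC trends, the replicate number as a block, all 6 columns, and leaving out each library. Protein sequences were not used here.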

Additional observations from a re-analysis of the deposited data

How the results depend on the processing

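The 17 alternatives on the 5 libraries or on subsets of them left the sign of 8 of the 9 transporter differences as reported. Among these, the other filters and limma without trend do not alter an estimate, so they could not change a sign. The groups of SLC1A1, SLC1A3, SLC1A4, SLC7A5, SLC7A11 and SLC38A1 did not overlap. For these genes another pseudocount or leaving out 1 library could not change the sign either. The replicate block gave the same estimates as leaving out control replicate 2, so the same holds for it. SLC1A5, at -0.10, ranged from -0.25 to 0.052 with 1 library left out, and was above 0 only without knockdown replicate 1. SLC1A3 stayed between -1.62 (voom on recovered reads) and -1.24 (pseudocount of 1 RPKM). With all 6 columns as deposited, where knockdown replicate 2 does not follow the gene IDs and the median of all genes was -0.91, SLC1A4 was -1.12 and SLC7A11 0.17. The other 8 tested transporters had 0 calls under every alternative. Over all genes, limma called 0, voom with sample weights 4 and a fit that takes the replicate number as a block 40. With 1 library left out at a time, 0 genes were called, and the number of transporters below 0 stayed at 7 to 8 of 9. The numbers do not pair the libraries by the labels, and deviations of same-numbered libraries correlated at -0.17 for replicate 1 and 0.018 for replicate 3, so the block rests on a shared number only. It changed the call of no transporter tested. Control replicate 2, with 1948940 reads, limits SLC7A11 (35 reads), SLC1A1 (49 reads) and SLC1A3 (71 reads). A library left out leaves 1 knockdown library in 2 of these fits, which is then assumed to vary like the controls.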

Other observations

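Glutamate receptors were scarcely expressed, with 4 of 24 tested and 5 at 0 reads. The NMDA receptor subunit GRIN2D was at 0.431 to 0.556 RPKM in control, around the minimum of 0.5 RPKM for a test, and at 0.814 and 1.10 RPKM in knockdown (log2 difference 0.54, SE 0.24, limma adjusted p = 0.71). GRIN2D, GRIN1 and GRIN3B each had a control below that minimum and passed the filter only with their knockdown values. With such controls, a gene below 0.5 RPKM in knockdown would not have been tested, so the filter favoured higher genes here. Of 6 tested partners of the transporters, 4 were above 0, where 50.0% of all tested genes were below it, and the median was 0.21. BSG, a chaperone of lactate transporters that also binds the CD98 complex, was at 149.8, 109.9 and 155.3 RPKM in control and at 175.8 and 210.9 RPKM in knockdown (log2 difference 0.49, SE 0.22, limma adjusted p = 0.71). The summed RPKM of the 10 transporters was 226.7, 211.5 and 256.0 in control and 191.7 and 197.8 in knockdown. The ratio of SLC38A2 to SLC38A1 per length was 2.37, 1.92 and 2.54 in control and 2.63 and 2.95 in knockdown.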
